A study of Mus musculus with 6 samples.

Results

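The suppressors of cytokine signaling form a family of 8 mouse genes, Cish and Socs1 to Socs7, and all 8 were found by symbol among the 13564 genes of the deposited normalized table and the 55487 genes of the count files. The cultures compared were the progeny of naive CD4 T cells sorted from lymph nodes of C57BL/6J mice, activated for 4 days with 0.1 µg per ml of antibody 145-2C11, which binds CD3, and 250000 splenocytes of CD3eKO mice, which lack T cells and served as antigen-presenting cells. Foxo1TKO mice (CD4cre Foxo1 fl/fl) lose the transcription factor Foxo1 in all T cells, not in CD4 T cells alone, because the Cre is already active in thymocytes, whereas Foxo1Ctrl mice carry the floxed gene without Cre. Per the methods both lines also carry a Foxp3-GFP reporter, and the paper describes the mice of these cultures as young adults, for which its general age is 3 months. RNA was sequenced from 3 Foxo1TKO and 3 Foxo1Ctrl cultures, and the labels do not say whether these came from separate mice, so p-values measure the spread between these samples only. The labels give 50000 T cells per culture and name peripheral lymph nodes, the methods give another cell number and pooled peripheral and mesenteric nodes, and neither states if splenocytes were removed before the RNA was taken.

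SOCS proteins are induced by cytokines through JAK kinases and STAT transcription factors, and they then bind receptors or kinases and shut the same signal down. Each has an SH2 domain, which recognizes phosphorylated tyrosines, and a SOCS box, which recruits a Cullin-5 ubiquitin ligase through Elongins B and C. In T cells they set how long a cell responds to interleukins and interferons. CIS (the product of Cish) and SOCS1 to SOCS3 are the classical feedback members, whereas SOCS4 to SOCS7 have longer N-termini and are better known from growth factor and insulin signaling.

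The response elements of the feedback members lie close to their promoters. RefSeq promoter windows of 300 bases (250 before and 50 after the annotated start, GRCm38.p6) were found for 4 of the 8 members, Cish, Socs1, Socs3 and Socs4, and were searched on both strands. The letters TTCNNNGAA, the core of the gamma-activated site bound by STAT dimers, occurred in 8.3% of the 32851 windows of this length and in 2 of the 4 members, Cish and Socs3. The letters GAAANNGAA, found in elements bound by interferon-regulated factors, occurred in 8.56% of windows and in Socs1 alone among the 4. The forkhead letters GTAAACA occurred in 3.65% of windows and in none of the 4, which says only that these letters were not in these windows. The stretches that hold the matches are shown for Cish, Socs3 and Socs1, the only ones of the 4 members with a match. They are printed on the strand of the gene, with the matching letters in capitals.
Cish: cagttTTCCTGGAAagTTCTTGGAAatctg
Socs3: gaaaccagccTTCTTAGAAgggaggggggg
Socs1: cttgccgGAAAGAGAAACCGAAagcggggg
The Cish stretch (chr9:107296654-107296683, plus strand) holds 2 matches in tandem, the first of which begins at the RefSeq start, and lies in the UTR of a GENCODE M21 transcript. The Socs3 stretch (chr11:117969501-117969530, minus strand) holds a single match that begins 154 bases before the RefSeq start and is intronic in GENCODE M21, which annotates a transcript starting further upstream. The Socs1 stretch (chr16:10785597-10785626, minus strand) holds 2 overlapping matches, the first of which begins 83 bases before the start, upstream of the gene. A match is a description of the letters and shows neither binding nor a cause of any value given here.

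All 8 members passed the filter of at least 10 counts in at least 3 libraries, and those called changed in both directions. Socs3 and Socs2 were lower in Foxo1TKO cultures, Cish was higher, and Socs1, Socs4, Socs5, Socs6 and Socs7 were not called. A gene was called different when its fold change was over 1.5 and its adjusted p under 0.05 by the quasi-likelihood test of edgeR, with p-values adjusted after Benjamini and Hochberg over the 13691 genes tested. By this rule 23.0% of all genes tested were called, 11.1% higher and 11.8% lower, so that 3 of 8 members called (1 higher, 2 lower) stood against a wide background of change. The TMM-normalized counts of 4 members (Socs2, Socs3, Socs6 and Cish) did not overlap between the genotypes, which was the case for 42.7% of all genes. The median log2 fold change was 0.19 over the members and 0.01 over all genes tested.

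The labels were first checked on the deleted gene. Foxo1 gave 84.7, 46.1 and 114 TMM-normalized counts in the 3 Foxo1TKO libraries against 1516, 2266 and 1584 in the Foxo1Ctrl libraries. Every Foxo1TKO library lay far below every control. T cell markers summed to 5290 to 5855 TPM (the transcript abundance per length that RSEM gives) in Foxo1TKO and 6420 to 6674 TPM in Foxo1Ctrl libraries, with 1 of 6 called lower. Library totals ran from 14783890 to 19675447 counts.

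Socs3 had the largest difference of the family. SOCS3 blocks JAK kinases through its kinase inhibitory region and docks on gp130, the shared chain of the IL-6 receptor family. Socs3 gave 604, 297 and 444 normalized counts in Foxo1Ctrl replicates 1, 2 and 3. In Foxo1TKO replicates 1, 2 and 3 it gave 15.9, 6.96 and 6.39, values that rested on 19, 8 and 6 reads. The lowest control thus lay well above the highest Foxo1TKO library, and each Foxo1TKO value was set by few reads. The mean fell from 448 ± 154 (SD, n = 3) to 9.76 ± 5.35 (n = 3), a log2 fold change of -5.36 ± 0.44 (SE; 95% interval -6.38 to -4.35; edgeR adjusted p = 0.00021). In the order of all fold changes tested, Socs3 (chromosome 11, 117966079 to 117970047, minus strand) stood at place 34 from the lowest of 13691. It was called in all 17 alternative settings that were fitted for it, with log2 fold changes between -5.87 and -5.08.

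Socs2 was the other member that fell. SOCS2 restrains growth hormone signaling and, unlike SOCS1 and SOCS3, has no kinase inhibitory region. Socs2 gave 182, 206 and 184 normalized counts in the control replicates and 34.4, 39.2 and 19.2 in the Foxo1TKO replicates. The controls were tightly grouped and the genotypes were far apart. The mean went from 191 ± 13.6 to 30.9 ± 10.4 (SD, n = 3), a log2 fold change of -2.58 ± 0.31 (SE; edgeR adjusted p = 0.00112). Socs2 (chromosome 10, 95385362 to 95417180, minus strand) was also called in each of the 17 alternative settings, between -2.77 and -2.34.

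Cish moved the other way. CIS is induced by STAT5 and dampens IL-2 and T cell receptor signals. Cish gave 376, 258 and 161 normalized counts in the Foxo1TKO replicates and 131, 81.7 and 136 in the control replicates. Foxo1TKO replicate 1 was the highest library and Foxo1TKO replicate 3 lay only slightly above the highest control. The mean rose from 116 ± 30.2 to 265 ± 108 (SD, n = 3), a log2 fold change of 1.18 ± 0.35 (SE; 95% interval 0.36 to 2.0; edgeR adjusted p = 0.045). This call was close to the threshold. It held in 9 of 17 alternative settings and was lost with limma-voom (adjusted p = 0.0576), with limma on the deposited normalized signal (0.0528) and with limma on TPM (0.0983). It was also lost when any library other than Foxo1TKO replicate 3 was left out, with an adjusted p between 0.085 and 0.118, and the log2 fold change without Foxo1TKO replicate 1 was 0.83. Cish (chromosome 9, 107296026 to 107302784, plus strand) shares 261 exonic bases with Gm17040 and 479 with Gm17041 on the opposite strand, and the sources used here do not give the strandedness of the counting. Gm17040 had 0.516% of the counts of Cish and Gm17041 had 0.

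**Figure D1:**
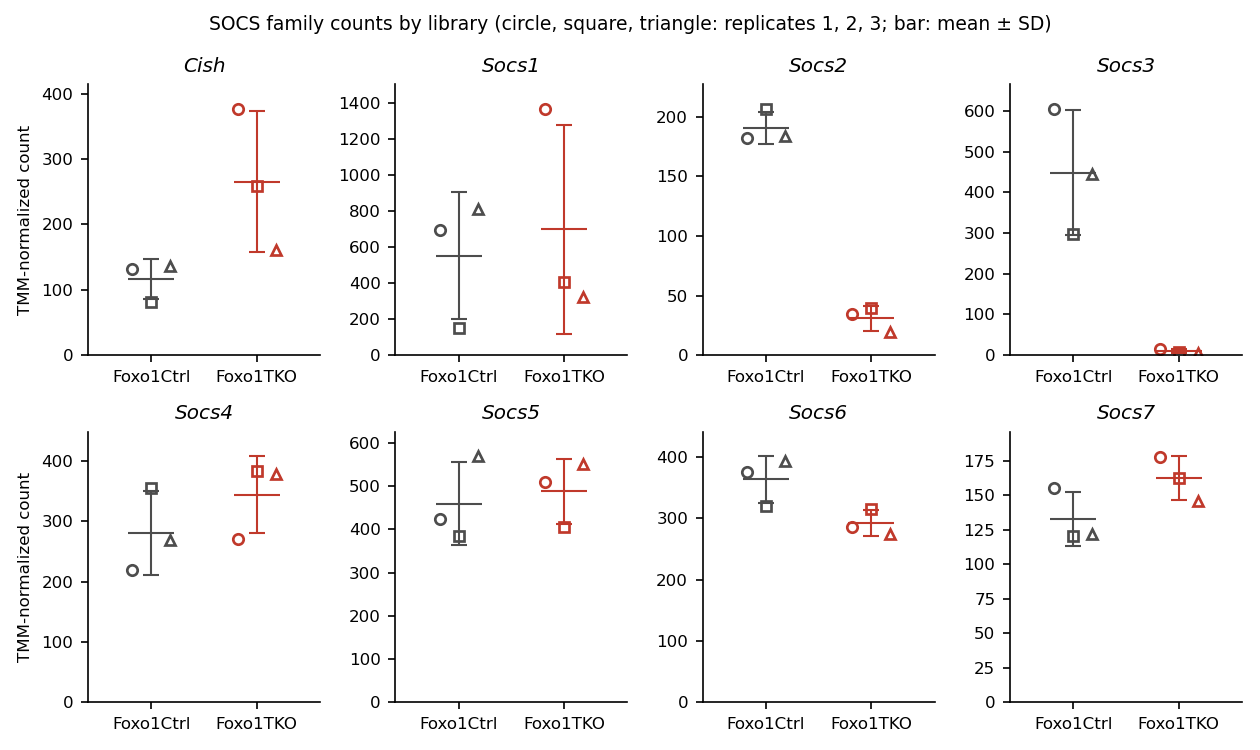
TMM-normalized counts (vertical axes, from 0) of the 8 SOCS family members in 3 Foxo1Ctrl (grey) and 3 Foxo1TKO (red) libraries. Circles, squares and triangles are replicates 1, 2 and 3, and bars are the mean ± SD. Socs3 fell from 448 to 9.76 and Socs2 from 191 to 30.9, Cish rose from 116 to 265, and Socs1 ranged from 150 to 1368 with overlap of the genotypes.

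Socs1 was the most variable member. SOCS1 inhibits JAK kinases directly and is the main brake on interferon-gamma signaling. Socs1 gave 1368, 406 and 325 normalized counts in the Foxo1TKO replicates and 696, 150 and 814 in the control replicates. Both the highest value (Foxo1TKO replicate 1) and the lowest (Foxo1Ctrl replicate 2) lay far from the other libraries of their genotype, and the genotypes overlapped. The highest and lowest library differed 4.21-fold within Foxo1TKO and 5.44-fold within Foxo1Ctrl. The log2 fold change was 0.34 ± 0.69 (SE) with a 95% interval from -1.27 to 1.94 (edgeR adjusted p = 0.767), so that changes of up to 3.84-fold upward and a fall to 0.416 of the control level were within the error. Its sign turned when 1 library was left out, with -0.60 without Foxo1TKO replicate 1 and -0.08 without Foxo1Ctrl replicate 2.

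The spread of Socs1 ran alongside that of GC-rich genes from library to library. The longest Socs1 transcript has 58.8% GC, at percentile 95.2 of the tested genes with a GC value, and that of Socs3 has 58.7%. Within each genotype, the 1368 most GC-rich genes had a median deviation from the genotype mean of 0.28, -0.10 and -0.14 (log2 CPM) in Foxo1TKO replicates 1, 2 and 3. In Foxo1Ctrl replicates 1, 2 and 3 this median was 0.21, -0.36 and 0.16. The deviations of Socs1 had the same signs in all 6 libraries, at 1.27, -0.48 and -0.80 in Foxo1TKO and 0.66, -1.55 and 0.89 in Foxo1Ctrl. Those of Socs3 also had the same signs, between -0.53 and 0.76, whereas Socs4 (38.5% GC) had the opposite sign in all 6, between -0.33 and 0.37. Socs6, the other GC-poor member (39.9% GC), did not share this, since its deviations, between -0.17 and 0.12, had the sign of the GC-rich genes in 4 of 6 libraries. With offsets for GC content in edgeR, an alternative chosen after the data were seen, the log2 fold changes were 0.16 for Socs1 (adjusted p = 0.853), -5.48 for Socs3 (2.89e-05) and 1.1 for Cish (0.0248).

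**Figure D2:**
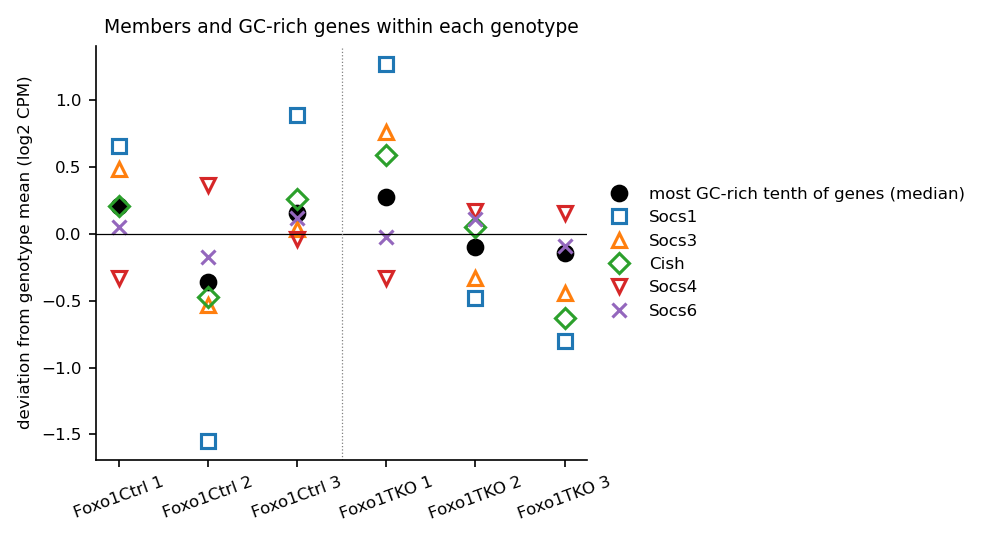
Deviation from the genotype mean (vertical axis, log2 CPM) in each of the 6 libraries, for the median of the 1368 most GC-rich genes (black) and for Socs1, Socs3, Cish, Socs4 and Socs6. Socs1 and Socs3 lie on the same side of 0 as the GC-rich genes in every library, Socs4 lies on the other side, Socs6 stays between -0.17 and 0.12 with no fixed side, and Socs1 moves furthest, from -1.55 to 1.27.

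The 4 members with long N-termini differed little between the genotypes. SOCS4 and SOCS5 are known for acting on the EGF receptor, SOCS6 binds the stem cell factor receptor KIT and SOCS7 binds insulin receptor substrates. Socs6 gave 287, 315 and 275 normalized counts in the Foxo1TKO replicates and 376, 321 and 393 in the control replicates. These values did not overlap, but the gap was narrow, and the log2 fold change of -0.31 ± 0.18 (SE) was not called (edgeR adjusted p = 0.246). In TPM and in the deposited normalized signal the Socs6 values of the genotypes overlapped. Socs4 ranged from 271 to 383 in Foxo1TKO and from 219 to 356 in Foxo1Ctrl libraries (0.29 ± 0.25, adjusted p = 0.443). Socs7 ranged from 146 to 178 and from 120 to 155 (0.29 ± 0.22, adjusted p = 0.389). Socs5 ranged from 405 to 550 and from 386 to 569 (0.09 ± 0.22, adjusted p = 0.811). The 95% intervals of these 4 genes ran at the widest from 0.605 of the control level (Socs6) to 1.81-fold of it (Socs4), so that a change of up to these sizes would not have been resolved.

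**Figure D3:**
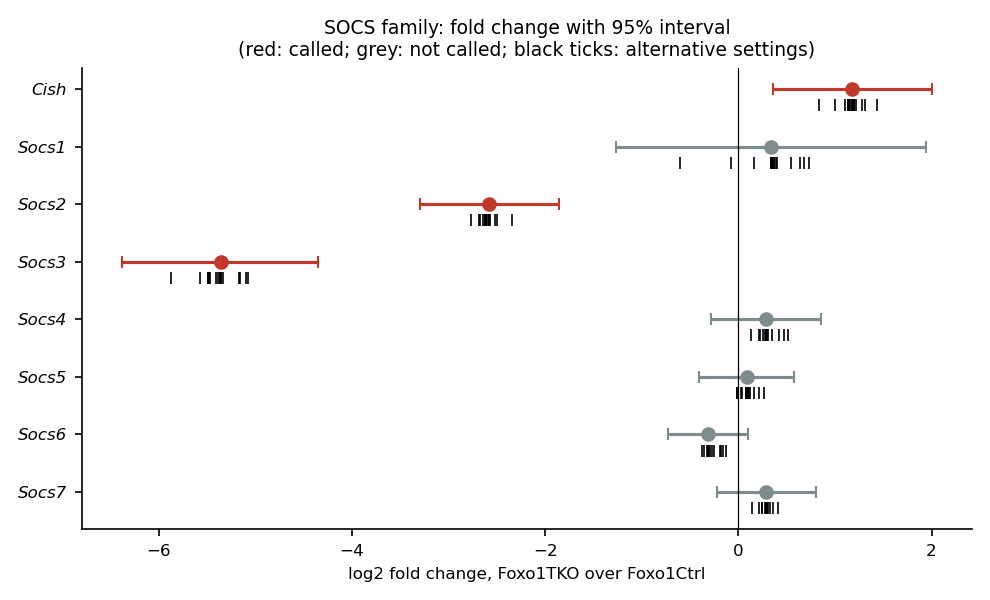
Log2 fold change of Foxo1TKO over Foxo1Ctrl (horizontal axis) for each member with its 95% interval, in red where called and grey where not, with black ticks for the 17 alternative settings. The intervals of Socs3 (-6.38 to -4.35), Socs2 and Cish leave out 0, whereas those of the other 5 members include it.

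Levels were compared between members per transcript length, in TPM. In Foxo1Ctrl libraries Socs1 (14.2 ± 9.56 TPM, SD, n = 3), Socs3 (12.9 ± 5.62), Socs2 (10.9 ± 1.12) and Socs5 (8.19 ± 3.16) had the highest levels, and their ranges overlapped. Socs6 followed with 6.78 ± 1.87 TPM and overlapped with Socs5. Cish (2.85 ± 0.927 TPM) and Socs4 (2.72 ± 0.414 TPM) lay below Socs6 in every control library and overlapped with each other, and Socs7 was the lowest with 1.0 to 1.56 TPM. In Foxo1TKO libraries the order was Socs1 (18.6 ± 16.9 TPM), Socs5 (8.95 ± 2.47), Cish (6.74 ± 3.22) and Socs6 (6.12 ± 1.34), neighbours whose ranges overlapped. Socs4 (3.47 ± 0.326 TPM) came next, then Socs2 (1.82 ± 0.806) and Socs7 (1.6 ± 0.296), which overlapped, and Socs3 was last with 0.283 ± 0.179 TPM. Socs3 thus held place 1 or 2 of the family in each control library and place 8 in each Foxo1TKO library.

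The sum of the family did not separate the genotypes. The 8 members summed to 74.8, 38.0 and 30.1 TPM in the Foxo1TKO replicates and to 70.0, 35.9 and 73.4 TPM in the control replicates. The sums overlapped, with a log2 ratio of the means of -0.33 (two-sided exact permutation p = 0.7, where 0.1 is the smallest p that 3 against 3 libraries allow). Socs1 made up 25.0% to 51.0% of the sum in Foxo1TKO and 9.08% to 28.8% in Foxo1Ctrl libraries. The share of Socs3 was 0.574% ± 0.0778 (SD, n = 3) in Foxo1TKO against 21.4% ± 4.26 in Foxo1Ctrl libraries. That of Socs2 was 4.12% ± 2.07 against 19.7% ± 6.41. That of Cish was 14.2% ± 2.20 against 4.80% ± 0.156, and the shares of each of these 3 members did not overlap. Shares of a sum are not independent, since a smaller share of one member raises those of the others. Socs4 to Socs7 together had 20.1 ± 3.34 TPM in Foxo1TKO and 19.0 ± 4.80 TPM in Foxo1Ctrl libraries.

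**Figure D4:**
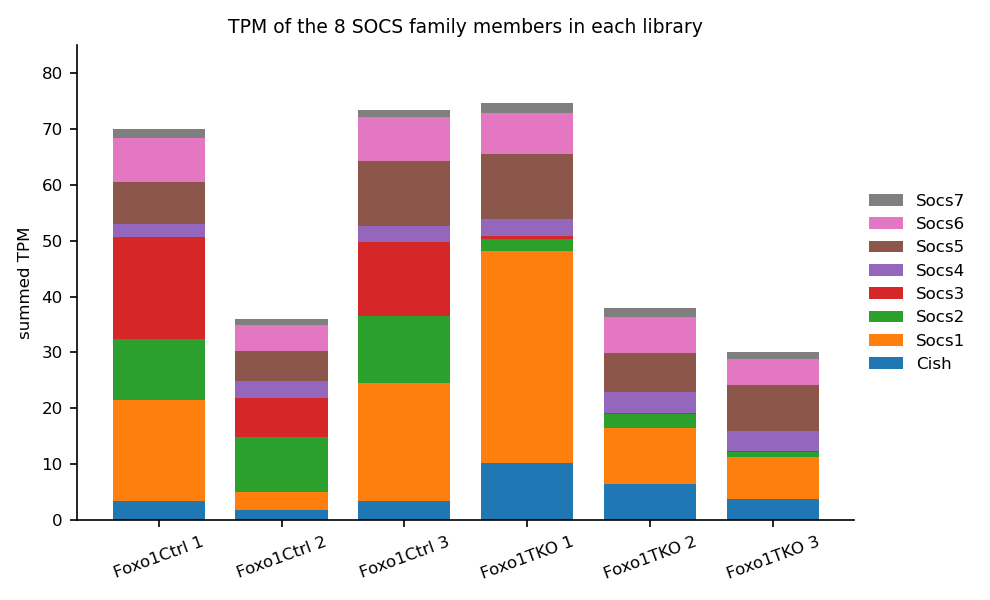
TPM of the 8 members (vertical axis, from 0) stacked for each of the 6 libraries. The height varies within both genotypes, from 30.1 to 74.8 TPM in Foxo1TKO and from 35.9 to 73.4 TPM in Foxo1Ctrl, while the bands of Socs3 and Socs2 are broad in every control and thin in every Foxo1TKO library.

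The cultures also held cells other than T cells, and some of their markers moved with the genotype. B cell markers (8 genes, 6 tested) summed to 7.11 to 9.09 TPM in Foxo1TKO and 22.5 to 28.8 TPM in Foxo1Ctrl libraries, with 3 called lower, and plasma cell markers (4 genes, 2 tested) to 22.1 to 53.0 against 99.7 to 120 TPM, with both tested genes called lower. Their part in the lower Socs3 and Socs2 was not tested. In bulk RNA, fewer cells of a type and less RNA per cell cannot be told apart. Macrophage markers (7 genes, 0 tested) were close to 0 in all libraries, at 0.24 to 0.92 TPM in Foxo1TKO and 0.04 to 0.72 TPM in Foxo1Ctrl, and C1qa was listed at 0 in each. Neutrophil markers (5 genes, 0 tested) summed to 0.28 to 5.47 against 0 to 0.31 TPM. Dendritic cell (2.42 to 3.74 against 2.01 to 3.71 TPM), NK cell (2.31 to 3.22 against 2.33 to 3.53), erythroid (16.3 to 36.8 against 20.8 to 42.1), CD8 T cell (4.27 to 6.48 against 6.87 to 8.29) and regulatory T cell markers (2.83 to 4.13 against 2.39 to 5.18) had 0 genes called by edgeR, with 1 at an unadjusted p under 0.05, which was also the only gene of these lists called by DESeq2 (0 by limma-voom).

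The genes that surround the family in cytokine signaling were counted from 13 lists. Of 131 listed genes, 100 were tested, and 9 were called higher and 24 lower, with a median log2 fold change of -0.32, against 0.01 over all genes. Over all genes tested, 11.1% were called higher and 11.8% lower. These shares are also the background for the counts of each list below, and no list was tested against them. The lists that hold the receptors of SOCS3 and SOCS1 included some large changes. In the gp130 and IL-12 receptor family 2 of 6 tested genes were lower and 0 higher. Il6st, which encodes gp130 itself, was not called (log2 fold change 0.48, edgeR adjusted p = 0.224). Il6ra, the ligand-binding chain of the IL-6 receptor, went from 263 ± 130 to 10.5 ± 4.56 normalized counts (SD, n = 3; log2 fold change -4.53, edgeR adjusted p = 0.00107), and Il12rb2, the signaling chain of the IL-12 receptor, had -2.15 (0.00677). Among 6 tested interferon and IL-10 receptors, edgeR called 1, DESeq2 3 and limma-voom 2, and 3 had an unadjusted p under 0.05. The gene called by edgeR was Ifngr1, the ligand-binding chain for interferon-gamma, with a fall from 47955 ± 5020 to 4275 ± 387 normalized counts (-3.49, adjusted p = 3.42e-05).

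Receptors linked to Cish, Socs2, Socs6 and Socs7 were mixed. Among 8 common gamma chain receptors, which signal through JAK1 and JAK3 and only in part through STAT5, 2 were lower and 1 higher. Il7r, the IL-7 receptor chain, had a log2 fold change of -3.49 (edgeR adjusted p = 0.000191) and Il4ra, the IL-4 receptor chain, of -1.2 (0.0163). Of 7 tested receptors for growth hormone, growth factors and the beta common cytokines, 3 were lower and 1 higher. Igf1r, the IGF-1 receptor, had -4.57 (0.000122) and Insr, the insulin receptor, -1.27 (0.00465), whereas Kit rose from 483 ± 84 to 2358 ± 840 normalized counts (2.29, 0.00134). Among cytokine ligands (6 tested), 2 were lower and 1 higher, Csf2, which encodes GM-CSF (3.29, 0.00137).

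Downstream of the receptors, 0 of 4 Janus kinases were called by edgeR, DESeq2 or limma-voom, and 0 had an unadjusted p under 0.05. Jak1 had a log2 fold change of -0.41 ± 0.19 (SE; edgeR adjusted p = 0.171), Jak2 of -0.63 ± 0.28 (0.145) and Jak3 of 0.06 ± 0.39 (0.935), and Tyk2 had means of 347 and 348 normalized counts (0.997). Of the 7 STAT factors, edgeR called 1 higher and 2 lower, DESeq2 called 5 and limma-voom 3. An unadjusted p under 0.05 was found for 5. Stat5a was called higher (log2 fold change 1.01 ± 0.16, SE, edgeR adjusted p = 0.00313), and Stat4 was among those called lower (-0.67 ± 0.13, 0.00796). Stat3 had 1.07 ± 0.41 (0.0992), Stat2 -1.09 ± 0.37 (0.0689), Stat5b -0.31 ± 0.22 (0.346) and Stat6 0.09 ± 0.56 (0.926), and these 4 were not called, although DESeq2 called Stat2 (adjusted p = 0.021) and Stat3 (0.0318).

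Genes that the same STAT factors induce gave a comparison for the feedback members. Of 10 STAT5-induced genes, the class to which Cish and Socs2 belong, 5 were lower and 0 higher, with a median log2 fold change of -1.13. These included Pim1, a survival kinase, which went from 3168 ± 879 to 378 ± 60.9 normalized counts (SD, n = 3; -3.06, edgeR adjusted p = 0.000227), Gzmb (granzyme B, -2.41, 0.00888), Pim2 (-2.28, 0.0168) and the survival gene Bcl2 (-1.04, 0.00372). Cish, called in 9 of 17 alternative settings, was thus higher in the same libraries in which 5 of these 10 genes were lower. The remaining 5 were not called and went both ways, with log2 fold changes from -1.22 to 1.0. Among them, Ccnd2 was higher without overlap (0.57, edgeR adjusted p = 0.0307), and only its 1.48-fold change missed the threshold. Of 7 tested STAT3-induced genes, 2 were lower and 2 higher, among them Batf, an AP-1 family factor (-1.25, 0.00206), and Rora, a nuclear receptor of the Th17 lineage (2.53, 7.71e-05). Of 12 interferon-induced genes, 6 were lower and 0 higher, with a median of -1.11, and Ifit3 (-2.9, 0.00151), Gbp2 (-2.58, 0.000115), Ifit1 (-1.81, 0.00295) and Irf9 (-1.01, 0.00241) were among them.

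The machinery shared by all members did not show such differences. Of the 7 SOCS box ubiquitin ligase partners, such as the Elongins and Cullin-5, 0 were called by edgeR, DESeq2 or limma-voom and 0 had an unadjusted p under 0.05, and their median log2 fold change was -0.04. Of 14 tested genes for other SOCS box proteins, 2 were higher and 0 lower, and Asb2, which targets filamins, rose from 1026 ± 406 to 3247 ± 2173 normalized counts (SD, n = 3; 1.66, edgeR adjusted p = 0.0482), a call that was lost in 8 of 17 alternative settings. Of 12 other brakes on JAK-STAT signaling, 1 was higher, Ptpn6, which encodes the phosphatase SHP-1 (1.14, 0.00859), and 1 lower, Cblb, a ubiquitin ligase that restrains T cell activation (-1.05, 0.0188). DESeq2 called 3 of these 12 and limma-voom 2, 6 had an unadjusted p under 0.05, and their median log2 fold change was -0.34.

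**Figure D5:**
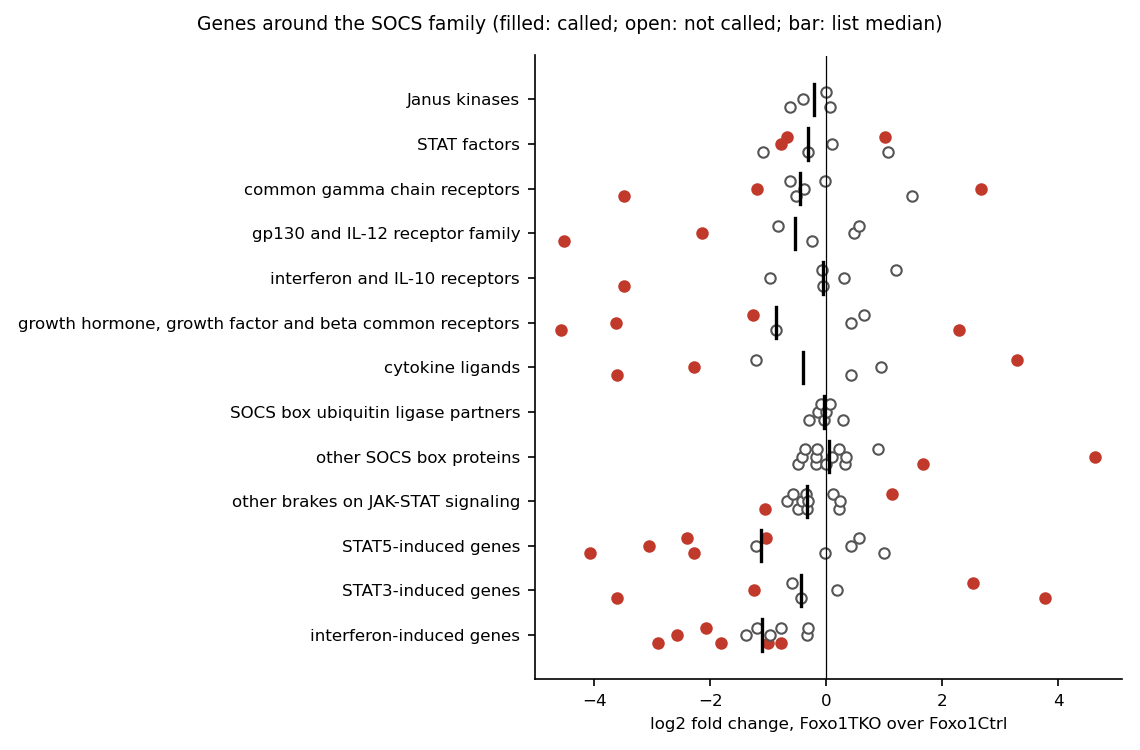
Log2 fold change of Foxo1TKO over Foxo1Ctrl (horizontal axis) for each tested gene of 13 lists around the SOCS family, filled red where called and open where not, with a black bar at the median of the list. The STAT5-induced (median -1.13) and interferon-induced (-1.11) lists lie mostly below 0, and the 7 ubiquitin ligase partners lie close to 0.

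The genes whose pattern was most like that of each called member were found among 10557 genes with 50 or more normalized counts on average, by the root mean square distance of centred log2 CPM over the 6 libraries. For Socs2 these were Fgl2 (0.15), Tmem154 (0.18) and Hs3st3b1 (0.19). For Socs3 they were Mgarp (0.35), Adamtsl4 (0.37) and Cyp2s1 (0.40), whose means in Foxo1TKO libraries were 33.6, 2.68 and 1.70 normalized counts. For Cish they were Pgghg (0.11), Parp1 (0.14) and Hspbp1 (0.15), and edgeR called 0 of these last 3 (adjusted p = 0.0676, 0.0519 and 0.055) whereas DESeq2 called all 3 (0.0254, 0.012 and 0.0144). Parp1 was called in 9 of 17 alternative settings, as many as Cish, Hspbp1 in 7 and Pgghg in 3. The distances are descriptions of 6 libraries and carry no test.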

How the data were processed

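The authors used STAR 2.7.6a for alignment to the Ensembl reference (GRCm38) and RSEM 1.3.1 for counting. They deposited expected counts, effective lengths and TPM per gene and library, and a table of normalized signal per gene. The expected counts are not normalized and the deposited TPM are scaled per library and transcript length. The authors made the deposited signal with DESeq2. Trimming and strandedness are not given in the sources used here.

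Expected counts were rounded to whole numbers and a gene needed 10 or more counts in 3 or more libraries to be tested (13691 genes). Genotypes were compared with edgeR 4.0.16 (R 4.3.3), by TMM scaling and the quasi-likelihood test with a prior count of 1, on genotype alone and with Benjamini-Hochberg adjustment over all genes tested. Fold changes are of Foxo1TKO over Foxo1Ctrl. The members, gene lists and tests were chosen with earlier results of these data known. Named genes were the 8 members, Foxo1, the Janus kinases and STAT factors, up to 4 called genes per list with the largest change and 50 or more normalized counts on average, and the 3 genes nearest to each called member. C1qa was named as a defining marker, Il6st as the gene of gp130 and Ccnd2 as a STAT5-induced gene close to the fold threshold. Some genes of the lists are not reported here. Alternatives were DESeq2 1.42.0, limma 3.58.1 (voom, signal with a pseudocount of 1, TPM with a pseudocount of 0.1), other scalings and filters, effective length offsets, the replicate number as a block, the adjusted p alone and each library left out. Offsets for GC content in 20 bins of genes were added after seeing the data. The fits were tested on simulated data. Gene positions came from GENCODE M21 (GRCm38; 55141 of 55487 identifiers matched), sequences from RefSeq (GRCm38.p6). Figures were drawn with matplotlib 3.10.9.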

Additional observations from a re-analysis of the deposited data

How the results depend on the processing

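Among the alternatives, Socs3 and Socs2 were called in 17 of 17 settings and Cish in 9 of 17, and the number of members called was 2 or 3 in every one. The number of all genes called was 3144 in the reported fit, 3694 with DESeq2 and 3390 with GC offsets, and ran from 1854 to 3321 when 1 library was left out (1854 without Foxo1TKO replicate 2 and 2031 without Foxo1Ctrl replicate 1). The log2 ratio of the summed TPM ran from -0.81 to -0.08 over the libraries left out. Leaving out a library gave -0.60 to 0.73 for Socs1 and -0.01 to 0.27 for Socs5, with -0.01 for Socs5 both without Foxo1TKO replicate 3 and without Foxo1Ctrl replicate 2. The sign also turned for 3 genes near 0 that were not called. With libraries left out, Jak3 ran from -0.34 to 0.32, Tyk2 from -0.21 to 0.20 and Stat6 from -0.78 to 0.43. With GC offsets Jak3 was -0.11 and Stat6 -0.08. Tyk2 was 0.01 with DESeq2 and with its size factors, 0.04 with limma-voom, 0.00 with filterByExpr, 0.02 without a filter and 0.03 with limma on TPM and with the replicate block. Stat6 was -0.03 with limma-voom and with the replicate block, -0.06 with limma on the signal and -0.01 with limma on TPM. The cause of these turns was not tested. Among the other named genes that were called, 26 were called in every setting, whereas Stat4, Il4ra, Asb2, Cblb and Pim2 were not. Stat4 was called in 16 of 17 settings, Il4ra and Pim2 in 13, Cblb in 12 and Asb2 in 9. Of the 6 fits with a library left out, Stat4 was called in 5, Il4ra in 3, Pim2 and Cblb in 2 and Asb2 in 1.

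For PD1, TIGIT and cell division in such cultures, the paper used paired t tests, with the experiment as the pair. It does not say whether the sequenced samples were paired, and so few libraries could not tell whether the replicate numbers pair them. The correlations of the deviations of same-numbered libraries were 0.432, 0.198 and -0.109, and those of the other pairs ran from -0.455 to 0.301. Of the 3 Foxo1TKO libraries, 2 correlated best with the control of their own number. With the replicate number as a block, 3318 genes were called, of which 2969 were called without it, and the members called were the same 3 genes.

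Depth limits Socs3 in Foxo1TKO cultures, where 6 to 19 reads stand behind each value.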
